A study of Mus musculus with 16 samples.

Results

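The homeobox developmental regulators outside the Hox clusters were taken as the gene entries whose symbols belong to the Pax, sine oculis (such as Six4), Lhx, Nkx, Dlx, Irx, Msx, Emx, En, Gsx, Vax, Barx, Barhl, Pitx, Alx, Isl, Meis or Tlx families, which gave 78 of the 56941 genes counted. The choice used gene names and no measured value, but it was made with earlier results of these data known. RNA bound to chromatin was sequenced from E14TG2a cells, an established mouse embryonic stem cell line grown in 1000 U/ml LIF with the MEK inhibitor PD0325901 at 1 µM and the GSK3 inhibitor CHIR99021 at 3 µM, a medium that holds such cells in the naive pluripotent state. The cells ectopically expressed KDM4A, KDM4B, KDM6A or KDM6B, each either with its IDR (intrinsically disordered region) deleted (del-IDR) or at full length (FL), which gave 8 groups of 2 libraries. Every group carried a construct on top of the endogenous enzymes, and no library without a construct was analysed here. The construct's promoter, its level and the number of clones are not given in the sources used here, and no label tells if a group's 2 libraries are separate cultures, so p-values measure only the spread between these libraries, which may be technical.

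Most genes of this set encode transcription factors that bind DNA through a homeodomain and set regional and cell identity in the embryo, from eye and forebrain to gut, limb and muscle. The Pax genes were taken by family name, and some, Pax9 among them, have a paired box and no homeodomain. In embryonic stem cells most genes of this kind are kept nearly silent: their promoters often lie in CpG islands that carry the Polycomb mark H3K27me3 together with H3K4me3. KDM6A (UTX) and KDM6B (JMJD3) remove methyl groups from H3K27, whereas KDM4A and KDM4B remove them from H3K9 and H3K36.

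The 16 libraries held 32739117 to 54890756 reads in genes, of which 7520 to 15458 fell in members, and 70 to 77 of the 78 members had at least 1 read in any given library. Summed markers of embryonic stem cells lay at 2318 to 3372 CPM (reads per 1000000, on library sizes scaled by TMM) and those of fibroblast feeders at 28.9 to 72.0 CPM. Endogenous and construct RNA of the 4 enzymes cannot be told apart. Kdm6a averaged 425 CPM with IDR-deleted and 433 CPM with full-length KDM6A, against 95.7 to 151 CPM in the other 6 groups, and Kdm4a averaged 296 CPM with IDR-deleted and 211 CPM with full-length KDM4A, so that the full-length value lay inside the 171 to 262 CPM of the 6 groups without a KDM4A construct. Kdm4b averaged 88.9 CPM with IDR-deleted and 95.5 CPM with full-length KDM4B, inside the 76.4 to 99.1 CPM of the other 6 groups, so its counts do not show that construct. Kdm6b averaged 94.7 CPM with IDR-deleted and 81.6 CPM with full-length KDM6B, only slightly above the 69.6 to 76.1 CPM of the other 6 groups.

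Promoter sequences of 55 members were found in a RefSeq table on GRCm38.p6, as 64 windows of 300 bases (250 before and 50 after the start), and 4 are shown because the results turn on these genes: Barx1, Msx1 and Pax9 rose with both IDR-deleted KDM4 enzymes, and Meis2 had the most reads and fell with IDR-deleted KDM4A. Capitals mark CG dinucleotides, and each is written 5′ to 3′ on the gene's own strand, at chr13:48662786-48663085 (+) for Barx1, chr5:37824536-37824835 (-) for Msx1, chr12:56695221-56695520 (+) for Pax9 and chr2:116064570-116064869 (-) for Meis2.
Barx1: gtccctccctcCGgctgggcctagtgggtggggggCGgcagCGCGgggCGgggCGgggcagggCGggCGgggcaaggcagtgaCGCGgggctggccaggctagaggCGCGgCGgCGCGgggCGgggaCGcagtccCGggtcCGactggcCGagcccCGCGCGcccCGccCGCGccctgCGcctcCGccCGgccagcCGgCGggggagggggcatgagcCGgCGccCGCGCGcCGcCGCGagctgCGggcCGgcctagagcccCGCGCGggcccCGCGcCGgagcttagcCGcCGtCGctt
Msx1: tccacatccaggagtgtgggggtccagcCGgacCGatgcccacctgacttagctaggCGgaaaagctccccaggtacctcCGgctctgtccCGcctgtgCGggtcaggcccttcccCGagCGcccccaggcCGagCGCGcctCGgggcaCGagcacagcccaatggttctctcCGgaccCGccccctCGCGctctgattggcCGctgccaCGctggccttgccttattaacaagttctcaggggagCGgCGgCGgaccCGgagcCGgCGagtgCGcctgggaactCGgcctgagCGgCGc
Pax9: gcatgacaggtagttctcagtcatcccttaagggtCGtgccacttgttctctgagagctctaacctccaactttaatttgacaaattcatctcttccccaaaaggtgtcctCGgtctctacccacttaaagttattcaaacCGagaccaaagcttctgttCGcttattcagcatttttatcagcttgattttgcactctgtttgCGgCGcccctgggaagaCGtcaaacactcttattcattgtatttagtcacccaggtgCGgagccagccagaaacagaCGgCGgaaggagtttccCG
Meis2: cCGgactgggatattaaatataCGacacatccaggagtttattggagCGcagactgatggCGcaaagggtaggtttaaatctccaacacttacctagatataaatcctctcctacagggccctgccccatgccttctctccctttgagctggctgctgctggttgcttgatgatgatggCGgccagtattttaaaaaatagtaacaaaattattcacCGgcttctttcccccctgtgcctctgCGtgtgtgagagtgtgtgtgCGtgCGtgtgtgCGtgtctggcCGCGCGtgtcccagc

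The Barx1 window held 50 CG dinucleotides, that of Msx1 29, that of Meis2 13 and that of Pax9 11, of a range of 4 to 50 over all member windows. The Pax9 window had a CpG ratio (observed over expected) of 0.679 and 47.0% G and C, that of Meis2 0.666 and 51.0%. Among the 64 member windows 42 (65.6%) had more than 50% G and C and an observed over expected CpG ratio above 0.6, a common definition of a CpG island, against 10935 (33.3%) of the 32851 windows of all genes in the table. The median ratio was 0.746 in member windows and 0.384 in all windows, and the median number of CG dinucleotides 19 and 7. The letters TAATTA, a core that many homeodomains bind and that reads the same on both strands, occurred in 3 member windows (4.69%), against 5.29% of all windows. Counted by gene, 39 of the 55 members with a window met the island definition, and this was so for 19 of 27 members that rose with IDR-deleted KDM4A and for 17 of 24 that did not pass the test there. Island content of this kind was thus near the same share in both sets of members, and it was not tested.

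**Figure D1:**
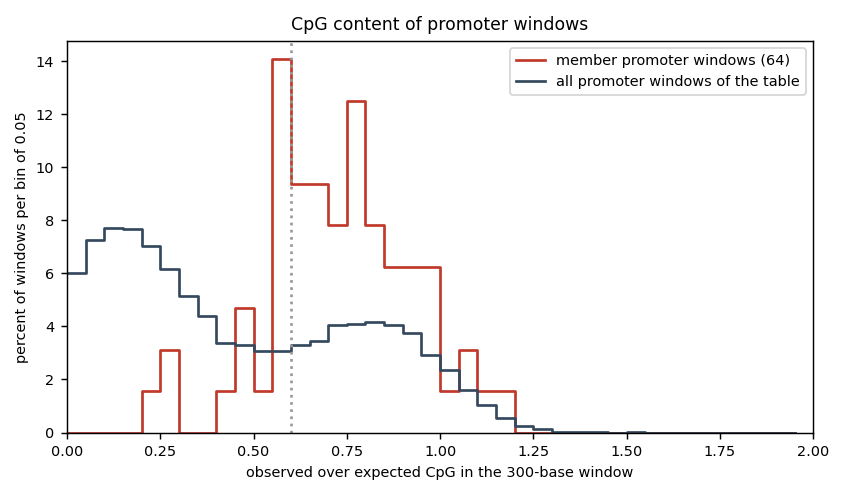
CpG content of promoter windows. The x axis gives the observed over expected CpG ratio of a 300-base window and the y axis the percent of windows in bins of 0.05, for the 64 member windows (red) and the 32851 windows of all genes (dark blue); the dotted line marks 0.6. Member windows lie mostly right of it, with a median of 0.746 against 0.384.

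Members were expressed weakly, and at very different levels. The mean over the 16 libraries ran from 0.0213 to 77.3 CPM with a median of 0.956, so that 40 of the 78 members stayed under 1 CPM and only Meis2 and Six4 exceeded 10. Per length, in RPKM (reads per kilobase of exon per 1000000 reads), the median was 0.296 and 15 members reached 1 RPKM. Among the highest per length were the following. Meis2, a cofactor of Hox and Pbx proteins, stood at 6.42 RPKM, Vax2 (ventral eye) at 5.26, Six4 (muscle and sensory organs) at 4.64, Nkx6-2 (ventral neural tube) at 2.09, Irx2 (an Iroquois patterning factor) at 1.99, Barx1 (stomach mesenchyme and teeth) at 1.88 and Barhl1 (cerebellar and inner ear neurons) at 1.84 RPKM. Tests needed enough reads, which 73 members had; Alx1 (89 reads over all libraries), Dlx5 (67), Nkx2-6 (32), Emx2 (22) and Pax4 (15) were not tested.

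The 8 groups differed in most members. In the edgeR quasi-likelihood test of all group means with Benjamini-Hochberg adjustment over 31057 genes, 58 of 73 members (79.5%) passed, close to the background of 75.8% of all genes. Among the 15 that did not pass were Barx2, Dlx1, Dlx6, Lhx3, Lhx4, Lhx6, Lhx9, Msx2, Nkx1-1, Nkx1-2, Six3, Six5, Six6 and Vax1. In levels, the group mean was highest with IDR-deleted KDM4A for 35 of the 78 members and with IDR-deleted KDM6B for 23, and it was lowest with IDR-deleted KDM6A for 30. Full-length KDM4A was the highest group for 0 and the lowest for 11 members. These orders are descriptions of the CPM means.

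**Figure D2:**
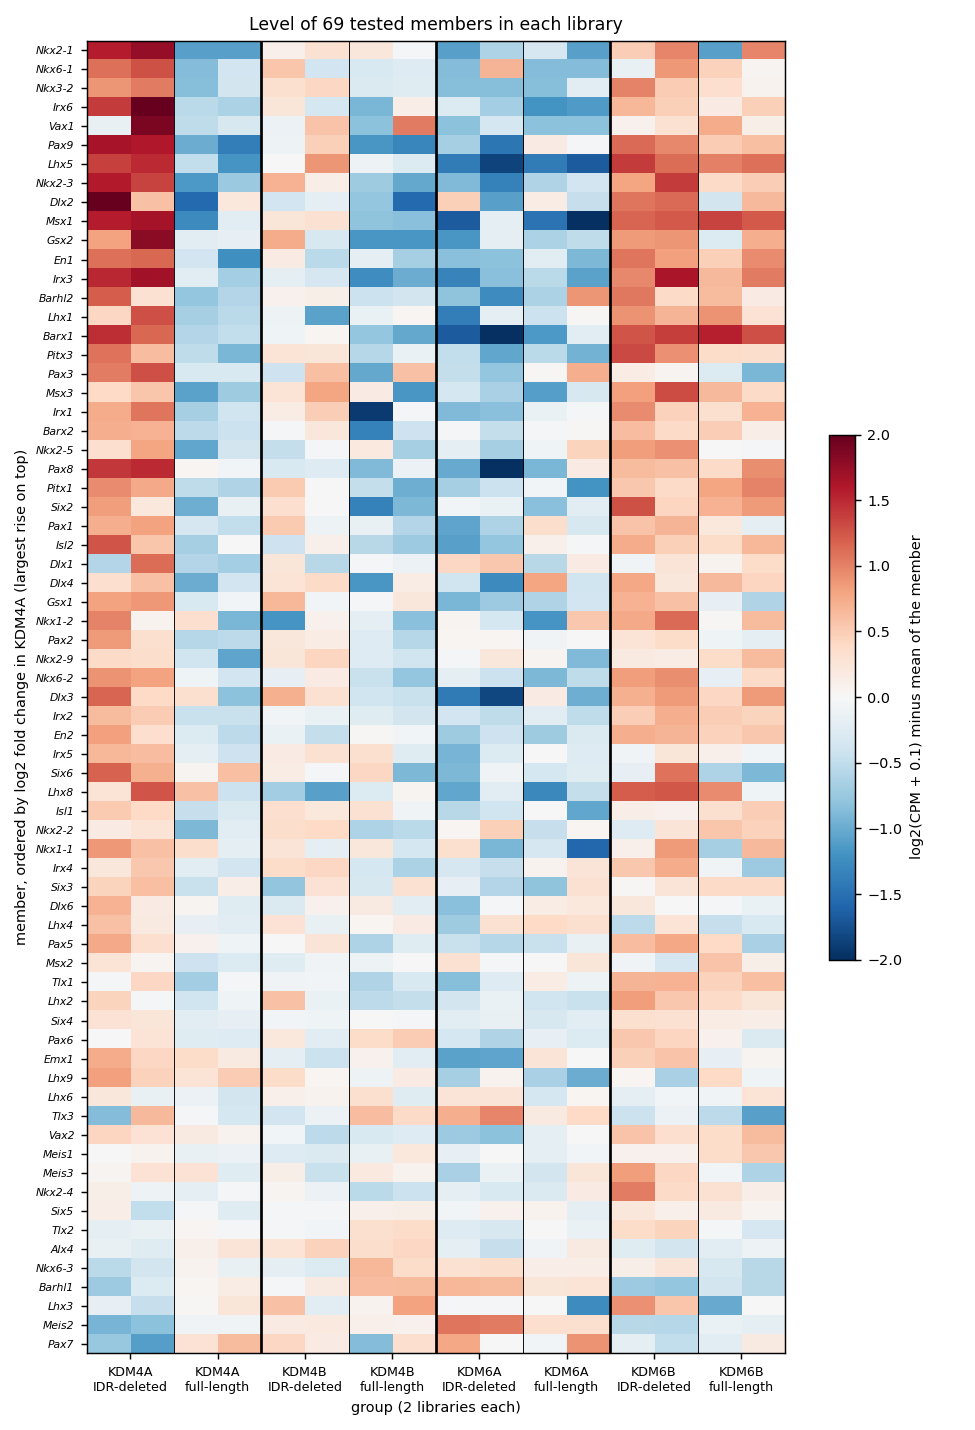
Level of 69 of the 73 tested members (rows, ordered by their log2 fold change in KDM4A) in the 16 libraries (columns, 2 per group, IDR-deleted left of full-length). Colour gives log2(CPM + 0.1) minus the member's mean over the libraries, and most members are red with IDR-deleted KDM4A, where 35 of the 78 have their highest group mean, while Meis2 and Pax7 at the bottom are blue.

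The first comparison asked how the members change when the IDR of KDM4A is removed. With IDR-deleted KDM4A, 38 of 73 tested members rose and 4 fell against full-length KDM4A, where 24.6% of all genes rose and 25.9% fell (50.5% in either direction). The median log2 fold change (IDR-deleted over full-length, in all that follows) was 1.08 over the tested members and -0.05 over all genes. It was 0.42, against -0.70 over all genes, with scaling by ERCC spike-in RNAs, and 0.54, against -0.01, among genes with a mean of at least 1 CPM. Of all 78 members 65 had the higher mean with IDR-deleted KDM4A, and of the 73 tested 55 lay wholly above and 8 wholly below the 2 full-length libraries, against 34.5% and 38.7% of all genes. In bulk RNA, more cells expressing a gene and more RNA per cell cannot be told apart. Multidimensional scaling places libraries by how far their expression differs. Its first axis (39.5% of the variance) put IDR-deleted KDM4A at -1.66 and -1.67 and full-length KDM4A at 0.978 and 1.05. The KDM6B libraries lay at -1.56 to -1.71. Genes with reads numbered 34227 and 34569 with IDR-deleted and 36981 and 37960 with full-length KDM4A. The part of this whole-library difference in the members' rise was not tested.

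The members that rose included Pax9, Msx1 and Nkx2-3. Pax9 (ENSMUSG00000001497, chr12:56738552-56759607 in GRCm39), a paired box factor of tooth, thymus and vertebral column, had 3.73 and 3.59 CPM with IDR-deleted KDM4A, against 0.512 and 0.364 CPM with full-length KDM4A. Its log2 fold change was 3.07 ± 0.32 (SE; edgeR adjusted p = 1.85e-10). Msx1 (ENSMUSG00000048450, chr5:37977829-37981927), a craniofacial factor, had 2.94 and 3.15 CPM with IDR-deleted KDM4A, against 0.326 and 0.789 CPM with full-length KDM4A (2.42 ± 0.37; edgeR adjusted p = 1.09e-06). Nkx2-3 (ENSMUSG00000044220), needed for spleen and gut, had 2.42 and 2.05 CPM with IDR-deleted KDM4A, against 0.279 and 0.405 CPM with full-length KDM4A (2.69 ± 0.38; edgeR adjusted p = 1.69e-07). In all of them both IDR-deleted libraries lay far above both full-length ones.

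Lhx5, En1, Irx6, Nkx2-1 and Dlx2 rose as well. Lhx5, a LIM homeobox factor of the forebrain, had 1.19 and 1.30 CPM with IDR-deleted KDM4A, against 0.256 and 0.121 CPM with full-length KDM4A (2.73 ± 0.51; edgeR adjusted p = 1.9e-05). En1, which sets up the midbrain-hindbrain boundary, had 1.22 and 1.27 CPM, against 0.372 and 0.162 CPM with full-length KDM4A (2.23 ± 0.48; edgeR adjusted p = 0.00016). Irx6, an Iroquois factor, had 0.640 and 1.16 CPM, against 0.0931 and 0.0809 CPM with full-length KDM4A (3.33 ± 0.81; edgeR adjusted p = 0.000629). Libraries of the 2 groups did not overlap for Lhx5, En1 and Irx6. Nkx2-1 (ENSMUSG00000001496), the thyroid, lung and ventral forebrain factor, had 18 reads in each IDR-deleted library (0.524 and 0.616 CPM) and 0 reads in both full-length libraries. That is at least 17.4-fold higher against a floor of 3 reads over the full-length group (edgeR adjusted p = 0.000356). Dlx2, of branchial arches and forebrain interneurons, had 1.16 and 0.342 CPM with IDR-deleted KDM4A, against 0 and 0.243 CPM with full-length KDM4A (2.57 ± 0.93; edgeR adjusted p = 0.022). Its groups did not overlap, but the call was lost without the first IDR-deleted library (log2 fold change 1.41; edgeR adjusted p = 0.36) and without the first full-length library (1.64; edgeR adjusted p = 0.177), and without the second full-length library its full-length side had 0 reads.

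Of the 4 members that fell, 3 are described here. Meis2 (ENSMUSG00000027210, chr2:115693545-115896320) had 37.5 and 40.7 CPM with IDR-deleted KDM4A, against 68.7 CPM in both full-length libraries, a log2 fold change of -0.81 ± 0.05 (edgeR adjusted p = 1.92e-16). Barhl1 had 4.08 and 5.61 CPM, against 6.96 and 7.56 CPM with full-length KDM4A (-0.59 ± 0.14; edgeR adjusted p = 0.000576). Pax7, of muscle satellite cells and neural crest, had 0.378 and 0.274 CPM, against 0.885 and 1.15 CPM with full-length KDM4A (-1.63 ± 0.49; edgeR adjusted p = 0.00505). Each of the 3 had both IDR-deleted libraries below both full-length ones. Without the first IDR-deleted library Barhl1 had an adjusted p of 0.0545, and without the second Pax7 had one of 0.0536.

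By family, 8 of 13 tested Nkx genes rose with IDR-deleted KDM4A (among them Nkx2-1, Nkx2-3, Nkx2-5, Nkx2-9, Nkx3-2, Nkx6-1 and Nkx6-2) and 0 fell. Of the Pax genes 6 of 8 rose (Pax1, Pax2, Pax3, Pax6, Pax8 and Pax9) and Pax7 fell, and of the Dlx and Msx genes 6 of 8 rose (Dlx1 to Dlx4, Msx1 and Msx3) and 0 fell. Of the Irx and Meis genes, which share the TALE type of homeodomain, 5 of 9 rose, all of them Irx genes (Irx1, Irx2, Irx3, Irx5 and Irx6), and Meis2 fell. Isl1, Isl2, Lhx1 and Lhx5 rose among 10 LIM homeobox genes, Pitx1 and Pitx3 among 5 Pitx and Alx genes, Six4 alone among the 6 tested sine oculis genes, and Barx1, Barx2, Barhl2, En1, En2 and Gsx2 among the other 14. The family medians of the log2 fold change minus the median of all genes were 1.33 for Nkx, 1.34 for Pax, 1.37 for Dlx and Msx, 1.04 for Irx and Meis, 0.80 for Lhx and Isl and 0.64 for the sine oculis genes, and with ERCC scaling they were 1.32, 1.33, 1.38, 1.03, 0.80 and 0.65 in the same order. That scaling moved the median of all genes to -0.70, so that the median of the sine oculis genes itself was 0.60 with TMM and -0.05 with ERCC scaling. With it 18 members rose and 12 fell, where 4.71% of all genes rose and 57.2% fell. Dlx1 shares 43.3% of its exon bases with the antisense gene Dlx1as, so its reads are uncertain.

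The smallest count of rises without 1 library was 25, without the first full-length library, and 17 of the 38 members with a mean of at least 1 CPM rose where 33.1% of those genes did. Markers of other cell types moved in this comparison as well: primitive endoderm markers summed to 982 to 1003 CPM with IDR-deleted and 699 to 752 CPM with full-length KDM4A (8 of 12 rose, 1 fell), trophectoderm markers to 125 to 129.9 against 92.0 to 94.2 CPM (7 of 10 tested rose, 0 fell), mesoderm markers to 54.5 to 55.1 against 33.6 to 34.1 CPM (6 of 12 rose, 1 fell), neural markers to 144 to 154 against 139 to 140.5 CPM (4 of 11 tested rose, 1 fell) and fibroblast markers to 71.6 to 72.0 against 43.3 to 47.0 CPM (3 of 7 tested rose, 0 fell). In every group the primitive endoderm sum rested largely on Col4a1 and Lama1. With IDR-deleted and full-length KDM4A Col4a1 averaged 462 and 221 CPM and Lama1 418 and 406 CPM. Gata4 averaged 9.54 and 4.12 CPM, Gata6 4.88 and 0.937 CPM and Sox17 2.18 and 1.06 CPM. Embryonic stem cell markers summed to 2859 to 2934 with IDR-deleted and 2976 to 3104 CPM with full-length KDM4A (6 of 14 rose, 7 fell). The trophectoderm gene Cdx2 averaged 0.190 CPM with IDR-deleted and 0.0435 CPM with full-length KDM4A, both very low levels. Elf5 (1.64 and 2.35 CPM), Tead4 (59.5 and 62.0 CPM) and Plac1 (0.0976 and 0.144 CPM) averaged lower with IDR-deleted KDM4A. The other listed trophectoderm genes averaged higher. Of the 12 listed fibroblast genes Fbn1 averaged 40.3 and 28.5 CPM, Pdgfrb 22.9 and 11.1 CPM, Col1a1 4.61 and 2.05 CPM, Thy1 2.65 and 1.91 CPM, Col3a1 0.0437 and 0.164 CPM, Dcn 0 and 0.0303 CPM, and Lum 0 CPM in both. The part of these markers in the members' rise was not tested.

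**Figure D3:**
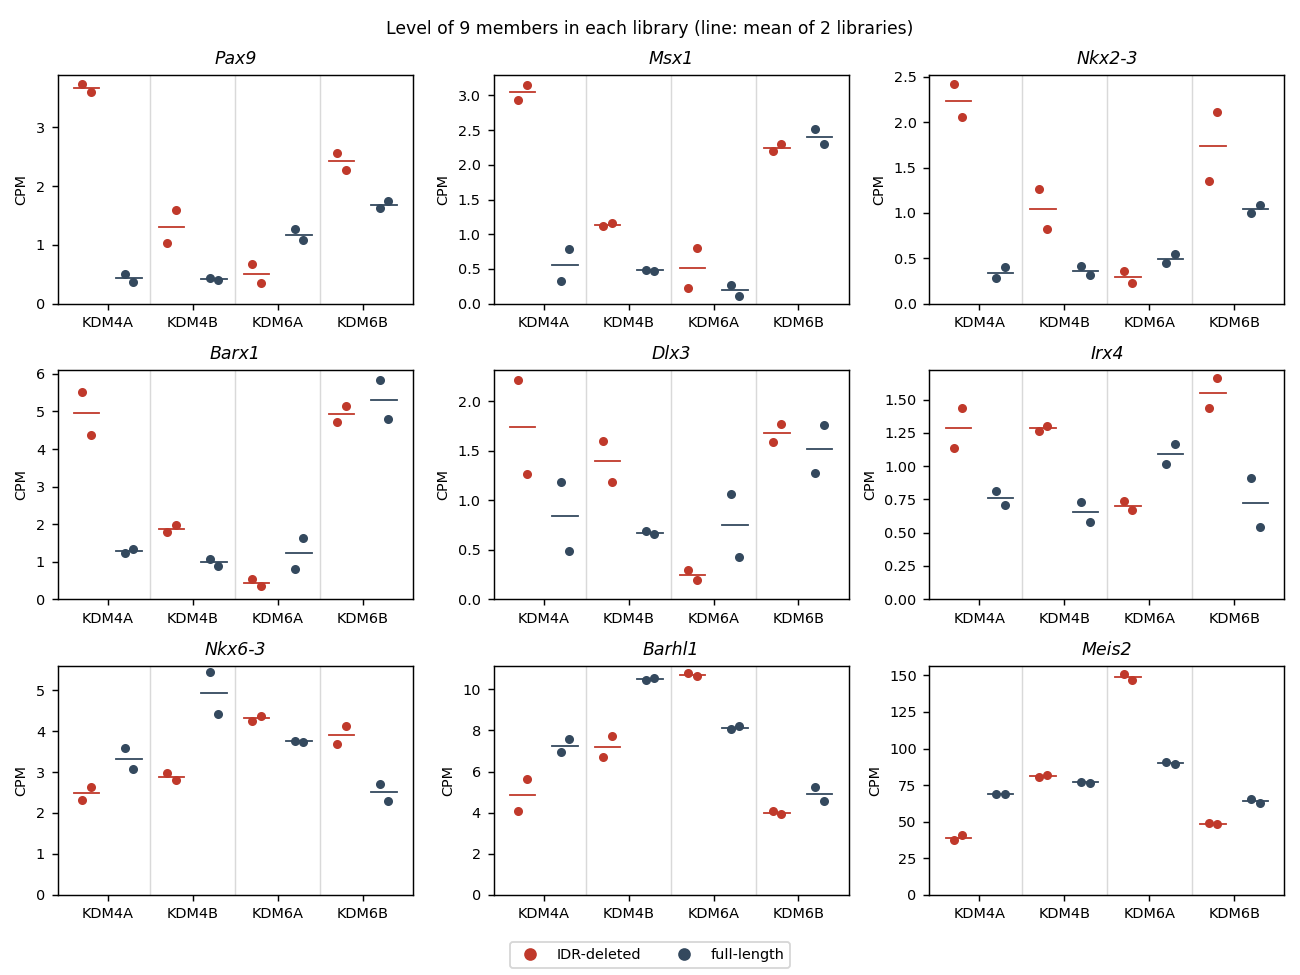
Level of 9 members in every library. The y axis gives CPM and starts at 0, the x axis the 4 enzymes with IDR-deleted libraries (red) left of full-length ones (dark blue), each point is 1 library and each line the mean of 2. Pax9, Msx1, Nkx2-3 and Barx1 are higher with IDR-deleted than with full-length KDM4A and KDM4B, Nkx6-3 stands at 5.45 and 4.42 CPM with full-length KDM4B, and Meis2 at 151 and 147 CPM with IDR-deleted KDM6A.

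The same question for KDM4B gave fewer changes. With IDR-deleted KDM4B, 16 of 73 tested members rose and 5 fell against full-length KDM4B, where 18.6% of all genes rose and 17.6% fell (36.2% in either direction), so the share that rose (21.9%) was near the background and the share that fell (6.85%) below it. The members' median log2 fold change was 0.24, against 0.01 for all genes. It was 0.05 (all genes -0.18) with ERCC scaling, 0.14 among genes with a mean of at least 1 CPM, 0.38 without the second IDR-deleted library, and 0.39 and 0.45 without the first and the second full-length library. Of all members 50 of 78 had the higher mean with IDR-deleted KDM4B. Of the 73 tested members 32 lay wholly above and 12 wholly below the full-length libraries, against 33.6% and 33.2% of all genes.

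Of the 5 members that fell, 4 are described here. Nkx6-3, a factor of the stomach, had 2.97 and 2.81 CPM with IDR-deleted KDM4B, against 5.45 and 4.42 CPM with full-length KDM4B (-0.77 ± 0.18; edgeR adjusted p = 0.000605). Barhl1 had 6.70 and 7.73 CPM, against 10.5 and 10.6 CPM with full-length KDM4B (-0.54 ± 0.13; edgeR adjusted p = 0.00106). Pax6, the eye and forebrain factor, had 5.59 and 4.09 CPM, against 6.25 and 6.91 CPM with full-length KDM4B (-0.44 ± 0.16; edgeR adjusted p = 0.0308), and Meis1, a relative of Meis2, had 7.63 and 7.41 CPM, against 8.18 and 10.6 CPM (-0.32 ± 0.12; edgeR adjusted p = 0.0376). All 4 had both IDR-deleted libraries below both full-length ones. Meis1 shares 18.3% of its exon bases with 2 other genes.

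Most of the members that rose did so with IDR-deleted KDM4A too. Pax9 had 1.03 and 1.59 CPM with IDR-deleted KDM4B, against 0.440 and 0.394 CPM with full-length KDM4B (1.64 ± 0.35; edgeR adjusted p = 0.000188). Nkx2-3 had 1.26 and 0.823 CPM, against 0.415 and 0.315 CPM with full-length KDM4B (1.5 ± 0.40; edgeR adjusted p = 0.0026). Msx1 had 1.12 and 1.16 CPM, against 0.488 and 0.473 CPM with full-length KDM4B (1.24 ± 0.40; edgeR adjusted p = 0.0147). Pitx1, which specifies the hindlimb, had 2.11 and 1.42 CPM with IDR-deleted KDM4B, against 1.00 and 0.684 CPM with full-length KDM4B (1.06 ± 0.31; edgeR adjusted p = 0.00682). The libraries of the 2 groups did not overlap for these members. Dlx3, of placenta and skin, rose by 1.05 ± 0.40 (1.60 and 1.18 CPM, against 0.684 and 0.657 CPM; edgeR adjusted p = 0.0356), Irx1 by 1.17 ± 0.43 (0.927 and 1.20 CPM, against 0.147 and 0.815 CPM; edgeR adjusted p = 0.0323) and Nkx2-2, of the ventral neural tube and pancreatic islets, by 1.10 ± 0.41 (0.906 and 0.943 CPM, against 0.415 and 0.447 CPM; edgeR adjusted p = 0.0335). Gsx2 also passed, with 17 reads with IDR-deleted and 0 with full-length KDM4B, at least 4.60-fold higher, but at under 0.5 CPM.

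Of these calls, those of Pax9, Nkx6-3 and Barhl1 held without any 1 library. Without the first IDR-deleted library the calls of Nkx2-3, Pitx1, Nkx2-2, Dlx3 and Meis1 were lost (edgeR adjusted p 0.0667 for Nkx2-3 to 0.22 for Dlx3) and Pax6 had a log2 fold change of -0.68, and without the second those of Msx1, Irx1, Nkx2-2, Pax6 and Meis1 (0.0601 for Msx1 to 0.421 for Pax6). Without the first full-length library the calls of Msx1, Irx1, Nkx2-2, Dlx3 and Pax6 were lost (0.054 for Pax6 to 0.56 for Irx1, which had 0.40) and Meis1 had -0.48, and without the second those of Msx1, Pitx1, Nkx2-2, Dlx3, Pax6 and Meis1 (0.0766 for Msx1 to 0.649 for Meis1) and Irx1 had 2.86. The number of rises was then 6, 10, 9 and 5 in this order of libraries, and the number of falls 4, 3, 4 and 3. Primitive endoderm markers summed to 716 to 754 CPM with IDR-deleted and 647 to 676 CPM with full-length KDM4B (6 of 12 rose, 1 fell). Mesoderm markers summed to 37.4 to 40.0 against 28.3 to 28.9 CPM (4 of 12 rose, 1 fell). Trophectoderm markers summed to 81.4 to 82.6 against 79.6 to 86.2 CPM (6 of 10 tested rose, 2 fell). Neural markers summed to 119 to 122 against 166 to 169 CPM (1 of 11 tested rose, 3 fell). Within that neural sum Stmn2 averaged 22.5 against 50.4 CPM and Nes 69.6 against 85.6 CPM. Fibroblast markers summed to 38.0 to 42.3 against 44.0 to 45.0 CPM (1 of 7 tested rose, 1 fell). Embryonic stem cell markers summed to 2318 to 2410 against 2753 to 2871 CPM (4 of 14 rose, 8 fell). Their part in the members' values was not tested.

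The KDM4A and KDM4B comparisons have no library in common, and their calls can be set beside each other. Of the members that rose, 12 were shared, which is 31.6% of the 38 with KDM4A and 75.0% of the 16 with KDM4B, among them Barx1, Dlx3, Gsx2, Irx1, Irx3, Msx1, Nkx2-3, Nkx6-2, Pax2, Pax9 and Pitx1. Over all genes tested, 64.3% of those that rose with IDR-deleted KDM4B rose with IDR-deleted KDM4A, and 48.7% the other way round. Barhl1 fell in both, where 63.0% of all genes that fell with IDR-deleted KDM4B fell with IDR-deleted KDM4A. Pax6 rose with IDR-deleted KDM4A (0.40 ± 0.17; edgeR adjusted p = 0.0474) and fell with IDR-deleted KDM4B. The median difference between the 2 deletion effects (KDM4A minus KDM4B) was 0.66 over the members and -0.06 over all genes. The test of the difference passed for 15 of 73 members, a smaller share than the 31.1% of all genes. The KDM4A effect was the higher one for 13 of them, a split that was not counted over all genes. Among the 13 were Pax9, by 1.42 ± 0.49 (edgeR adjusted p = 0.0231), and Irx2, by 0.83 ± 0.20 (edgeR adjusted p = 0.00099). The KDM4A effect was the lower one for Meis2 by -0.90 ± 0.07 (edgeR adjusted p = 1.09e-12) and for Pax7 by -2.12 ± 0.66 (edgeR adjusted p = 0.011). For Msx1, Nkx2-3, Dlx3 and Pitx1 the difference did not pass, which does not show equal effects: for Msx1 it was 1.18 ± 0.56 and for Nkx2-3 1.19 ± 0.57. Without the second full-length KDM4A library 8 members differed, and with ERCC scaling 8.

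With IDR-deleted KDM6A, 3 of 73 tested members (4.11%) rose and 7 (9.59%) fell against full-length KDM6A, where 8.3% of all genes rose and 8.65% fell (17% in either direction). The median log2 fold change was -0.22 over the members and 0.00 over all genes, and -0.20 with the members at 0 reads in a group set at their bound. It was -0.43 (all genes -0.21) with ERCC scaling and -0.14 with no filter on low counts. Of the 78 members 31 had the higher mean with IDR-deleted KDM6A, and of the 73 tested 13 lay wholly above and 25 wholly below the full-length libraries, against 26.9% and 26.7% of all genes.

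Of the 3 members that rose, 2 are described here. Meis2 had 151 and 147 CPM with IDR-deleted KDM6A, against 90.8 and 89.8 CPM with full-length KDM6A, a log2 fold change of 0.72 ± 0.05 (edgeR adjusted p = 9.23e-14). IDR-deleted KDM6A was the group with the highest Meis2 level of all 8, and IDR-deleted KDM4A, at 37.5 and 40.7 CPM, the lowest, a 3.81-fold span of group means. Barhl1 had 10.8 and 10.6 CPM, against 8.05 and 8.22 CPM with full-length KDM6A (0.40 ± 0.13; edgeR adjusted p = 0.0304). For both the groups did not overlap.

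The members that fell were mostly near 1 CPM. Vax2 was the most abundant, with 3.73 and 3.49 CPM with IDR-deleted KDM6A, against 5.46 and 6.22 CPM with full-length KDM6A (-0.69 ± 0.16; edgeR adjusted p = 0.00112). Emx1, a factor of the cerebral cortex, had 0.648 and 0.652 CPM, against 1.78 and 1.48 CPM with full-length KDM6A (-1.33 ± 0.29; edgeR adjusted p = 0.000729). Barx1 (ENSMUSG00000021381, chr13:48816474-48819983) had 0.536 and 0.345 CPM, against 0.812 and 1.63 CPM with full-length KDM6A (-1.45 ± 0.31; edgeR adjusted p = 0.000745). Both libraries with IDR-deleted KDM6A lay below both full-length ones in each case, although the 2 full-length libraries differed for Barx1. Pax9 had 0.670 and 0.345 CPM with IDR-deleted KDM6A, against 1.26 and 1.08 CPM with full-length KDM6A (-1.23 ± 0.33; edgeR adjusted p = 0.00738). Dlx3 had 0.290 and 0.192 CPM, against 1.06 and 0.428 CPM (-1.66 ± 0.48; edgeR adjusted p = 0.0121), and Isl2, a motor neuron factor, had 0.424 and 0.556 CPM, against 1.11 and 0.999 CPM (-1.09 ± 0.37; edgeR adjusted p = 0.0327). Pax8, of thyroid and kidney, had 0.693 and 0.269 CPM, against 0.744 and 1.68 CPM with full-length KDM6A (-1.33 ± 0.39; edgeR adjusted p = 0.0152), and its values nearly met.

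Of these calls those of Meis2, Vax2 and Emx1 held without any 1 library. Without the first IDR-deleted library Isl2 and Barhl1 no longer passed (edgeR adjusted p 0.124 for Barhl1 and 0.213 for Isl2) and Pax8 had a log2 fold change of -2.13, without the second Pax9, Dlx3, Isl2, Pax8 and Barhl1 (0.0686 for Isl2 to 0.274 for Pax8), leaving 4 falls, without the first full-length library Pax9, Dlx3, Isl2 and Barhl1 (0.0851 for Pax9 to 0.481 for Dlx3, which had -0.83), and without the second Barx1, Pax8, Isl2 and Barhl1 (0.0838 for Isl2 to 0.438 for Pax8; Barx1 had -0.89), and with ERCC scaling only Meis2 of the 3 rises passed while 15 members fell. With ERCC scaling 1.43% of all genes rose and 23.0% fell. Fibroblast markers summed to 28.9 to 30.6 CPM with IDR-deleted and 42.3 to 43.1 CPM with full-length KDM6A (0 of 7 tested rose, 2 fell). Trophectoderm markers summed to 66.2 to 69.1 against 76.5 to 77.3 CPM (1 of 10 tested rose, 1 fell). Primitive endoderm markers summed to 763 to 808 against 653 to 657 CPM (3 of 12 rose, 0 fell). Neural markers summed to 120.3 to 124 against 106 to 109 CPM (3 of 11 tested rose, 1 fell). Mesoderm markers summed to 33.2 to 36.2 against 30.8 to 33.6 CPM (1 of 12 rose, 0 fell). Embryonic stem cell markers summed to 2761 to 2912 against 2640 to 2730 CPM (5 of 14 rose, 3 fell). The part of all these markers was not tested. Of the 7 members that fell, 5 rose with IDR-deleted KDM4A (71.4% of the 7 and 13.2% of the 38): Barx1, Dlx3, Isl2, Pax8 and Pax9. With IDR-deleted KDM4A 52.1% of all tested members rose, and over all genes tested 66.1% of those that fell with IDR-deleted KDM6A rose with IDR-deleted KDM4A, so the members' share is near that of all genes. Meis2 and Barhl1, which rose with IDR-deleted KDM6A, fell with IDR-deleted KDM4A. Over all genes tested, 52.2% of those that rose with IDR-deleted KDM6A fell with IDR-deleted KDM4A.

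**Figure D4:**
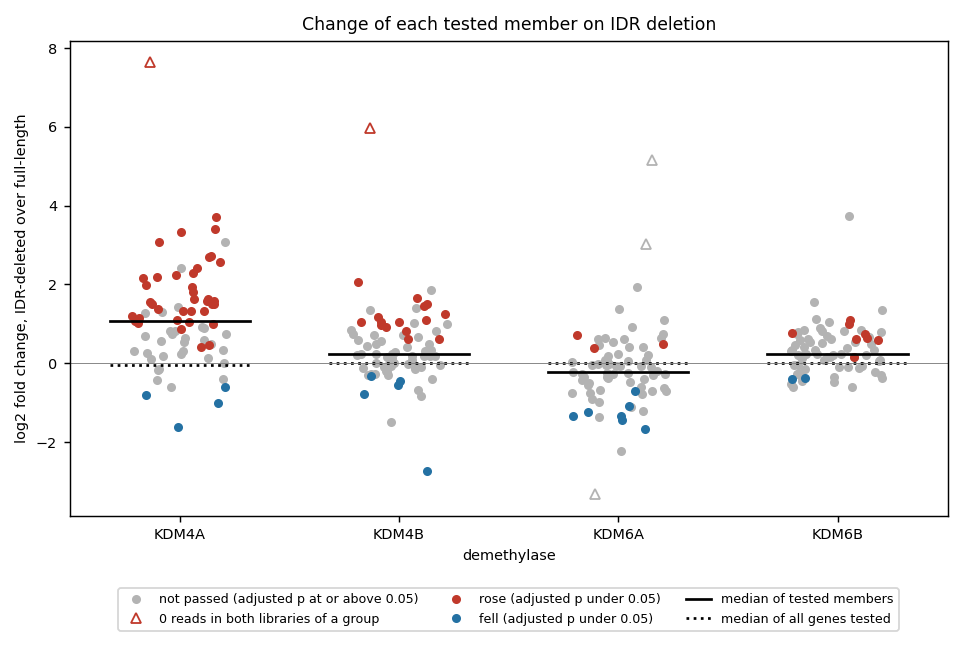
Change of the 73 tested members on IDR deletion. The y axis gives the log2 fold change of IDR-deleted over full-length libraries for each enzyme on the x axis, red points rose and blue points fell (edgeR adjusted p under 0.05), grey points did not pass, and open triangles mark members with 0 reads in both libraries of a group, whose fitted value is no bound. The members' median (solid line) stands at 1.08 for KDM4A, 0.24 for KDM4B, -0.22 for KDM6A and 0.24 for KDM6B, where it turns to -0.13 with ERCC scaling, and the median of all genes (dotted line) near 0.

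With IDR-deleted KDM6B, 8 of 73 tested members rose and 2 fell against full-length KDM6B, where 9.89% of all genes rose and 10.7% fell (20.6% in either direction). The members' median log2 fold change was 0.24 and that of all genes 0.00, and with ERCC scaling they were -0.13 and -0.38, so the members' median turned below 0 but stayed 0.25 above that of all genes. Among genes with a mean of at least 1 CPM it was 0.15. Of the 78 members 56 had the higher mean CPM with IDR-deleted KDM6B, and of the 73 tested 36 lay wholly above and 11 wholly below the full-length libraries, against 29.4% and 28.6% of all genes.

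Meis2 fell here, with 48.9 and 48.4 CPM with IDR-deleted KDM6B, against 65.8 and 62.4 CPM with full-length KDM6B (-0.40 ± 0.05; edgeR adjusted p = 1.41e-07). Meis1 had 9.63 and 9.68 CPM, against 11.7 and 13.3 CPM with full-length KDM6B (-0.37 ± 0.12; edgeR adjusted p = 0.0205). Irx4, of the heart ventricle, rose, with 1.43 and 1.67 CPM with IDR-deleted KDM6B, against 0.910 and 0.542 CPM with full-length KDM6B (1.09 ± 0.33; edgeR adjusted p = 0.0139). For none of these did the groups overlap. Nkx6-2 had 6.63 and 7.08 CPM with IDR-deleted KDM6B, against 3.25 and 4.78 CPM with full-length KDM6B (0.77 ± 0.18; edgeR adjusted p = 0.00188), and Nkx6-3 had 3.69 and 4.12 CPM, against 2.71 and 2.30 CPM (0.64 ± 0.18; edgeR adjusted p = 0.00907). Pax6 had 7.09 and 6.55 CPM, against 5.11 and 3.93 CPM with full-length KDM6B (0.59 ± 0.16; edgeR adjusted p = 0.0075), and Pax5, the B cell factor, had 3.17 and 3.57 CPM, against 2.73 and 1.26 CPM (0.75 ± 0.26; edgeR adjusted p = 0.0315). The other rises were those of Meis3 (2.89 and 2.12 CPM, against 1.52 and 0.993 CPM; 0.99 ± 0.29, edgeR adjusted p = 0.012), of Tlx2, which enteric neurons need (3.19 and 3.37 CPM, against 2.38 and 1.92 CPM; 0.61 ± 0.20, edgeR adjusted p = 0.0268), and of Six4 (61.9 and 61.6 CPM, against 55.0 and 54.9 CPM; 0.17 ± 0.06, edgeR adjusted p = 0.0281). These too were non-overlapping, but of the 10 calls only that of Meis2 held under every alternative.

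With ERCC scaling 0 members rose and 12 fell, where 2.13% of all genes rose and 42.8% fell, and Six4 turned to -0.21. Without the second full-length library 1 member rose, which was Nkx6-2 among the named ones, and 1 fell, Meis2 (edgeR adjusted p 0.108 for Nkx6-3 to 0.528 for Pax5 among those lost), without the first IDR-deleted library 4 rose and 1 fell (0.0684 for Pax5 to 0.172 for Meis3), without the second 4 rose and 1 fell (0.0938 for Meis1 to 0.182 for Pax5), and without the first full-length library Nkx6-2 and Six4 were lost (0.122 for Nkx6-2 and 0.132 for Six4) and Pax5 had a log2 fold change of 1.41. Neural markers summed to 199 to 205 CPM with IDR-deleted and 145 to 156 CPM with full-length KDM6B (4 of 11 tested rose, 0 fell), fibroblast markers to 50.3 to 53.0 against 41.9 to 42.8 CPM (2 of 7 tested rose, 0 fell), mesoderm markers to 50.8 to 52.8 against 47.7 to 48.1 CPM (1 of 12 rose, 0 fell), primitive endoderm markers to 905 to 927 against 1121 to 1136 CPM (0 of 12 rose, 3 fell) and trophectoderm markers to 136 to 138 against 139 to 152 CPM (0 of 10 tested rose, 1 fell). Within the primitive endoderm sum Lama1 averaged 357 CPM with IDR-deleted and 590 CPM with full-length KDM6B, and Col4a1 412 and 375 CPM. Embryonic stem cell markers summed to 3356 to 3372 against 3240 to 3285 CPM (5 of 14 rose, 2 fell). The part of all these markers in the members' values was not tested.

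The effects of the 2 KDM6 deletions differed in 15 of 73 members, a share near the 21.8% of all genes. The KDM6A effect was the lower one in 12 of the 15, a split that was not counted over all genes. The median difference (KDM6A minus KDM6B) was -0.55 over the members and 0.00 over all genes. Meis2 had the opposite sign in the 2 comparisons, a difference of 1.12 ± 0.07 (edgeR adjusted p = 8.86e-15). Emx1 differed by -1.94 ± 0.39 (edgeR adjusted p = 0.000214) and Pax9 by -1.75 ± 0.43 (edgeR adjusted p = 0.00251). Without the second IDR-deleted KDM6A library 8 members differed, without the second full-length KDM6B library 8 and without the first IDR-deleted KDM6B library 9.

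Full-length enzymes were compared by family, the KDM6 pair against the KDM4 pair, since the 2 pairs act on different histone marks. These libraries also served as the full-length side of the deletion comparisons. The full-length KDM6 pair had 17 members higher and 5 lower of 73, where 22.5% of all genes were higher and 22.2% lower (44.6% in either direction). The 2 KDM6 groups were not alike. En2 averaged 2.76 CPM with KDM6A and 5.54 CPM with KDM6B, against 2.95 and 3.84 CPM with KDM4A and KDM4B. Irx2 averaged 4.81 and 8.64 CPM, against 4.52 and 5.02 CPM, and Lhx5 0.0737 and 0.940 CPM, against 0.189 and 0.341 CPM. A higher value of the pair can thus come from KDM6B alone. The median log2 fold change (KDM6 over KDM4) was 0.33, against -0.01 for all genes. With ERCC scaling it turned to -0.15, against -0.49 for all genes. There 3 members were higher and 19 lower, where 2.96% of all genes were higher and 59.4% lower. The members' median minus that of all genes was 0.34 with either scaling. The median was 0.19 among genes with a mean of at least 1 CPM and 0.20 without the second full-length KDM6A library. Of primitive endoderm markers 9 of 12 were higher and 0 lower (653 to 657 CPM with KDM6A and 1121 to 1136 CPM with KDM6B, against 699 to 752 CPM with KDM4A and 647 to 676 CPM with KDM4B), and of trophectoderm markers 7 of 10 tested were higher and 0 lower (76.5 to 77.3 CPM with KDM6A and 139 to 152 CPM with KDM6B, against 92.0 to 94.2 CPM with KDM4A and 79.6 to 86.2 CPM with KDM4B). Of mesoderm markers 4 of 12 were higher and 0 lower, and of neural markers 0 of 11 tested higher and 3 lower. Of fibroblast markers 1 of 7 tested were higher and 2 lower, and of embryonic stem cell markers 8 of 14 higher and 5 lower. Their part in the members' values was not tested.

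Pax9 had 1.26 and 1.08 CPM with KDM6A and 1.62 and 1.74 CPM with KDM6B, against 0.512 and 0.364 CPM with KDM4A and 0.440 and 0.394 CPM with KDM4B (1.72 ± 0.24; edgeR adjusted p = 1.78e-07). All 4 KDM6 libraries lay above all 4 KDM4 libraries. Barx1 was split within the KDM6 pair, with 0.812 and 1.63 CPM with KDM6A and 5.83 and 4.81 CPM with KDM6B, against 0.894 to 1.33 CPM with the KDM4 pair (1.16 ± 0.19; edgeR adjusted p = 2.09e-06). Nkx2-3 had 0.451 to 1.08 CPM with the KDM6 pair, against 0.279 to 0.415 CPM with the KDM4 pair (1.01 ± 0.30; edgeR adjusted p = 0.00498), and Dlx4 had 0.400 to 1.04 CPM, against 0.195 to 0.631 CPM (1.12 ± 0.36; edgeR adjusted p = 0.0104). The Dlx4 ranges overlapped, as did those of Barx1.

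Barhl1 was lower with the KDM6 pair, at 4.58 to 8.22 CPM, against 6.96 to 10.6 CPM with the KDM4 pair (-0.47 ± 0.10; edgeR adjusted p = 9.3e-05). Nkx6-3 (-0.40 ± 0.13; edgeR adjusted p = 0.00958) and Alx4, of skull and limb (-0.35 ± 0.12; edgeR adjusted p = 0.0192) were also lower with the KDM6 pair. Their calls depended on single libraries, as did that of Dlx4. Without the first full-length KDM4A library Nkx6-3 and Dlx4 had an edgeR adjusted p of 0.0567 and 0.052 and 3 members were lower. Alx4 reached 0.0897 without the second full-length KDM4A library, 0.0671 without the second KDM4B, 0.111 without the first KDM6A and 0.0761 without the first KDM6B library, Nkx6-3 0.0834 without the first KDM4B and 0.059 without the second KDM6B library, and Dlx4 0.0802 without the first KDM4B and 0.204 without the first KDM6A library.

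Members that lie within 1000000 bases of each other form 14 groups that hold 34 of the 78. On chromosome 12 Nkx2-1, Nkx2-9 and Pax9 all rose with IDR-deleted KDM4A, by 1.16 ± 0.31 for Nkx2-9 (edgeR adjusted p = 0.0018), and on chromosome 8 Irx3, Irx5 and Irx6 all did, by 2.20 ± 0.34 for Irx3 and 0.99 ± 0.27 for Irx5 (edgeR adjusted p of 0.0021 for Irx5). Dlx3 and Dlx4 on chromosome 11 and Dlx1 and Dlx2 on chromosome 2 also passed as rises in the same comparison. Dlx1 had 0.349 and 1.37 CPM with IDR-deleted KDM4A, against 0.349 and 0.324 CPM with full-length KDM4A. Its rise thus rested on the second IDR-deleted library, whereas the Dlx2 call was lost without the first. On chromosome 13 Irx1 and Irx2 rose beside Irx4, which had 0.75 and did not pass. Reads that fell on several genes were left out, so no read was counted for more than 1 neighbour. Whether neighbours moved together more often than distant members was not tested.

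Other gene lists give the setting. Of 60 other tested homeobox genes outside the Hox clusters, 26 rose and 10 fell with IDR-deleted KDM4A (median 0.35), 16 rose and 10 fell with KDM4B, 7 and 9 with KDM6A, and 12 and 5 with KDM6B. Of 33 Polycomb complex genes, which encode the writers and readers of H3K27me3 and H2AK119ub, 22 rose and 6 fell with IDR-deleted KDM4A (median 0.19), 10 and 12 with KDM4B, 10 and 7 with KDM6A and 5 and 6 with KDM6B. Of 13 tested genes of H3K4 methylation and UTX complexes, 6 rose and 3 fell with IDR-deleted KDM4A (median 0.08), 3 and 5 with KDM4B, 7 and 1 with KDM6A and 2 and 3 with KDM6B. The medians of these lists lay below the members' median of 1.08 with IDR-deleted KDM4A. Those of the cell type markers in that comparison were 1.13 for primitive endoderm, 1.06 for neural, 0.89 for mesoderm and 0.81 for trophectoderm markers. They were 0.50 for fibroblast and -0.02 for embryonic stem cell markers, so a median near that of the members was not particular to them. None of these differences was tested.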

How the data were processed

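Chromatin-associated RNA was sequenced from 16 libraries in 8 groups of 2. The deposited file holds the authors' counts of reads per gene. Per the file headers these counts were made with featureCounts 2.0.3 on exon features, with strand ignored, each read of a pair counted, a mapping quality of at least 30, and reads of several places or genes left out, on GRCm39 with spike-in sequences. For this reason 24 members that share exon bases with another gene have uncertain counts. Symbols came from GENCODE M21 (51948 of 56941 genes matched), and 92 ERCC entries were set apart.

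edgeR 4.0.16 (R 4.3.3) was fitted to all 8 groups with TMM scaling and robust quasi-likelihood on the 31057 genes kept by its expression filter (minimum count 10), with 8 residual degrees of freedom and Benjamini-Hochberg adjustment over all of them at 0.05. The scripts were tested on simulated data. Named members were, per deletion comparison, up to 8 rises and 8 falls with adjusted p under 0.05 and a higher group mean of 0.5 CPM or more, taken by size of log2 fold change, and 5 of each between the pairs, plus the 8 highest by RPKM; other names were chosen after their values were seen. Members and lists were chosen with earlier results of these data known. Alternatives were DESeq2 1.42.0, its median-ratio size factors, ERCC scaling, other filters, a replicate block, a fit of the compared groups alone, and leaving out each library. Values of some members are not reported here.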

Additional observations from a re-analysis of the deposited data

Results flagged for a closer look

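The 2 deletion effects within an enzyme family differed for a number of named members, in the edgeR test of the difference with Benjamini-Hochberg adjustment. Of 22 such values 6 passed and 22 kept their sign under every alternative tried. The KDM4A minus KDM4B values are log2 differences of the IDR-deleted over full-length change. Meis2 had -0.90 (adjusted p = 1.09e-12), Six4 0.52 (2.68e-06), Irx2 0.83 (0.00099) and Pax6 0.85 (0.00499). Pax7 had -2.12 (adjusted p = 0.011), Pax9 1.42 (0.0231), Meis1 0.50 (0.0254), Barx1 1.02 (0.0293), En1 1.92 (0.0318) and Lhx5 1.89 (0.0402). Nkx2-1 had a fitted 7.45 (adjusted p = 0.00941), which rests on 0 reads with full-length KDM4A and is no bound. With ERCC scaling Six4 (0.05), Meis1 (0.03), Irx2 (0.36), Pax6 (0.38), Barx1 (0.55) and Pax9 (0.96) did not pass.

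Between the KDM6A and KDM6B effects Meis2 differed by 1.12 (edgeR adjusted p = 8.86e-15) and Barhl1 by 0.70 (0.0071). Emx1 differed by -1.94 (edgeR adjusted p = 0.000214), Pax9 by -1.75 (0.00251), Irx4 by -1.72 (0.00636), Pax6 by -0.86 (0.00698) and Barx1 by -1.34 (0.00833). Meis3 had -1.34 (adjusted p = 0.0184), Vax2 -0.65 (0.0228), Dlx3 -1.81 (0.0261) and Tlx2 -0.85 (0.0308). Of these Meis2, Barhl1, Emx1 and Pax9 passed under every alternative, as did Meis2 and Nkx2-1 between the KDM4 effects. Dlx3 had -0.98 without the first full-length KDM6A library and Barx1 -0.79 without the second (adjusted p = 0.391 and 0.209).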

How the results depend on the processing

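ERCC scaling moved most counts of members: with IDR-deleted enzymes 18 rose and 12 fell for KDM4A, 7 and 9 for KDM4B, 1 and 15 for KDM6A and 0 and 12 for KDM6B (edgeR; 4 rose at an unadjusted p under 0.05, and 7 by DESeq2 with its own scaling), 3 were higher and 19 lower in the full-length KDM6 pair, and 8 differed between the KDM4 effects. Of all genes, 4.71% rose and 57.2% fell with ERCC scaling for KDM4A, 9.26% and 27.6% for KDM4B, 1.43% and 23.0% for KDM6A and 2.13% and 42.8% for KDM6B. In the full-length KDM6 pair 2.96% of all genes were higher and 59.4% lower. The ERCC share of reads was 1.05 to 1.11% with IDR-deleted and 0.775 to 0.794% with full-length KDM4A, and 1.5 to 1.53% with IDR-deleted and 1.14 to 1.22% with full-length KDM6B. Six4 with KDM6B reversed to -0.21 there. A mean of at least 1 CPM left 38 members, of which 17 rose with KDM4A, 11 were higher in the KDM6 pair and 34 differed among groups; with no filter 5 rose with KDM6A. Leaving out 1 library gave 25 to 32 rises and 3 to 4 falls for KDM4A, 5 to 10 and 3 to 4 for KDM4B, 2 to 2 and 4 to 7 for KDM6A, 1 to 6 and 1 to 2 for KDM6B, 13 to 18 and 3 to 5 between the pairs, 8 to 11 and 8 to 13 for the differences of effects, and 53 to 58 among groups. Of the 55 named values 15 no longer passed with ERCC scaling, 5 with DESeq2 and 5 in a fit of the compared groups alone; the cause was not tested.

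With the replicate number as a block 38 rose and 4 fell for KDM4A, 17 and 5 for KDM4B, 3 and 8 for KDM6A, 9 and 2 for KDM6B, and 18 and 5 between the pairs. The block had 15 and 17 differences of effects and 59 members differing among groups. Deviations of same-numbered libraries correlated at 0.224, 0.232, 0.242 and -0.000613 within the enzymes, and over all 28 pairs of groups the median was 0.208 and the highest 0.273. Same-numbered libraries thus deviated together in most pairs of groups, but not for KDM6B, and no label ties a number to a shared batch, so the numbers were not taken to pair the libraries. The 40 members under 1 CPM rest on few reads.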
